A study of Cyprinus carpio with 6 samples.

Results

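Ionotropic glutamate receptors, the ligand-gated ion channels of fast excitatory synapses, were followed in brains of common carp (Cyprinus carpio) exposed to lead and in control brains. The members were every gene of the deposited table whose description names an ionotropic glutamate receptor, glutamate receptor 1, 2, 3 or 4, or a probable glutamate receptor, leaving out metabotropic receptors and interacting proteins. This gave 105 of 53152 genes, made up of 23 AMPA, 39 NMDA, 26 kainate and 14 delta receptor genes and 3 genes described as probable glutamate receptor. The rule itself reads descriptions and no measured value. Messenger RNA of brain tissue was sequenced in 6 libraries, 3 whose agent label is lead and 3 whose agent label is none, here called control. The study asked how lead injures the carp brain. The labels used here give no dose, duration, age, sex or strain, and leave unsaid if the libraries are of different fish. The p-values thus reflect the spread among these libraries alone, and that spread may be technical.

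Glutamate opens the AMPA, NMDA and kainate channels, each of which is assembled from several subunits. AMPA receptors carry most of the fast current, and their subunit 2 limits calcium entry. NMDA receptors need an obligatory subunit 1 together with subunits of type 2 or 3, admit calcium, and are blocked by magnesium at rest. In cultured mammalian neurons and membranes lead is a known blocker of NMDA receptor channels. Kainate receptors act on both sides of the synapse, and delta receptors bind cerebellins and help to hold synapses together. Carp carry many subunits in several copies, because their lineage duplicated its genome.

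Total counts ran from 27841520 to 32826120 in lead libraries and from 31159339 to 34848243 in control libraries. The members were read from 1 edgeR quasi-likelihood fit over the 32149 genes with at least 1 FPKM (fragments per kilobase of transcript and of library size) in at least 3 libraries. At a Benjamini-Hochberg adjusted p under 0.05 this fit called 19 genes (0.0591%). Per-library levels below are CPM, counts scaled to library size by TMM, which compare libraries for 1 gene. FPKM is used to compare genes and in family sums, and it carries no TMM scaling. Fold changes are log2 values of lead over control with their SE. In bulk tissue, fewer cells of a type and less RNA per cell cannot be told apart.

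Most receptor genes did not pass the test, and those with small unadjusted p lay mainly below their control level in lead brains. Of the 105 members, 73 passed the filter on low values, 21 AMPA, 18 NMDA, 21 kainate, 10 delta and all 3 probable receptors. With edgeR, 1 of the 73 was called lower and 0 higher, where 0.0124% of all tested genes were called lower and 0.0467% higher. DESeq2 on the same counts called 8 members lower and 1 higher, where it called 2.41% of genes lower and 2.12% higher. At an unadjusted edgeR p under 0.05, 19 members were lower (26.0%) and 2 higher (2.74%), where 8.77% of all tested genes were lower and 7.53% higher. In 20 members every lead library lay below every control library, and in 2 every lead library lay above, where 12.6% and 11.9% of all tested genes did so. The median log2 fold change was -0.22 over the 73 members and -0.01 over all tested genes. Of the 73 members, 45 were below 0. Without control replicate 3 the 19 became 12. A pair of the 73, LOC109074502 and LOC109058625, passed the filter through the control libraries alone. Both are counted among the 19 lower members and among the 20 without overlap. Several of the 73 are neighbouring models that may be parts of 1 gene, and with abutting models summed, a choice made after the data were seen, 16 had such a p and were lower.

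**Figure D1:**
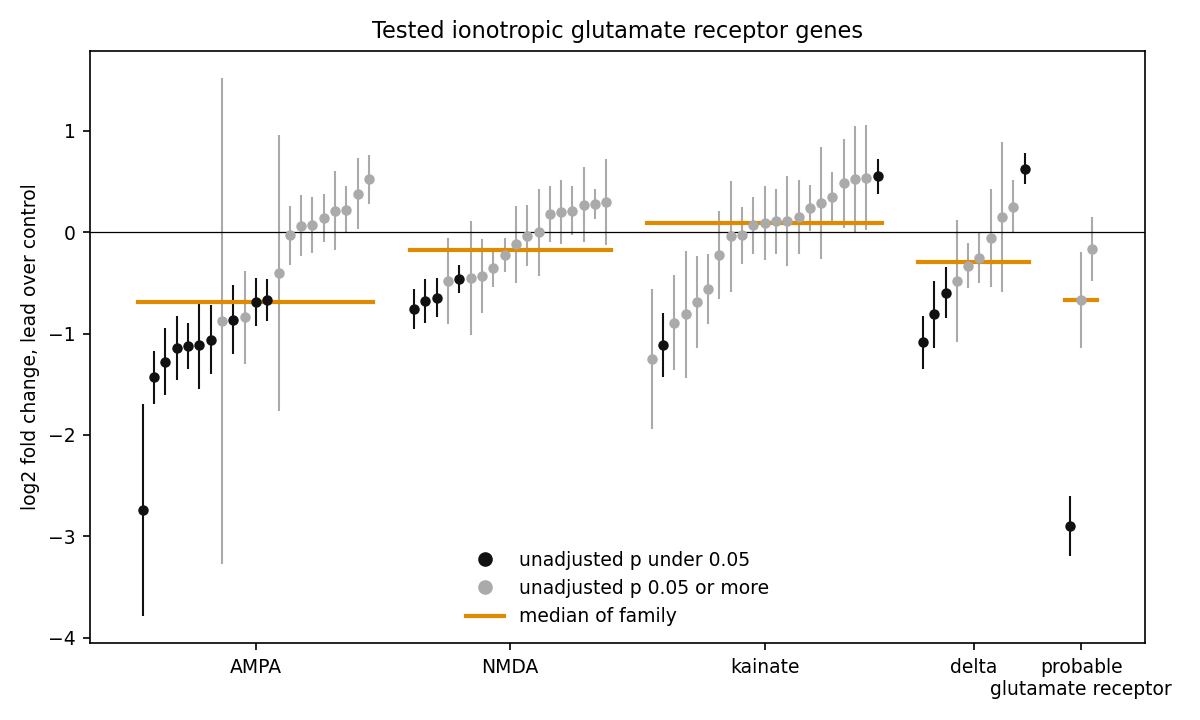
Each point is the log2 fold change of 1 tested receptor gene, lead over control, with its SE from edgeR, sorted within its family. Dark points have an unadjusted p under 0.05 and the orange line is the family median. The AMPA points run from -2.74 to 0.52, with 14 of 21 below 0, while kainate points run on both sides of 0.

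By the adjusted edgeR test 1 receptor gene fell, LOC109094639, described as a probable glutamate receptor. That name is given to kainate-binding proteins known from birds and amphibians, relatives of the AMPA and kainate receptors. It had 1.22, 1.57 and 1.14 CPM in lead libraries, against 11.1, 7.72 and 10.5 CPM in control libraries. The groups did not overlap, and the lead values stood far below the lowest control value. Its counts were 36, 41 and 37 in lead libraries, against 399, 249 and 342 in control libraries. Per transcript length it averaged 3.91 ± 0.59 FPKM in lead brains and 32.1 ± 6.58 FPKM in control brains (SD, n = 3 each). The log2 fold change was -2.90 (SE 0.30, n = 3 against 3), a level 0.134 times that of control brains, with an edgeR adjusted p of 0.0246. The call was lost without any 1 library other than control replicate 2, with edgeR adjusted p between 0.0776 and 0.121. The model lies on the minus strand of NC_031711.1 at 5435108-5444017, wholly inside the span of LOC109094488 on the same strand, so reads of the overlap could be assigned to either. Counts and FPKM imply a transcript of only 315 bases for LOC109094639, against 1345 bases for LOC109094488. LOC109094488 is described as glutamate receptor U1-like, after a receptor of the frog Xenopus, and its description leaves it outside the 105. It had 95.2, 69.1 and 98.5 CPM in lead libraries, against 282.7, 175.5 and 219.9 CPM in control libraries. Those groups did not overlap either, and its log2 fold change was -1.37 (SE 0.22) with an edgeR adjusted p of 0.121.

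The other probable receptors lie in a row on NW_017540730.1 and did not differ beyond their spread. LOC109074771, at 12232-20870, had the highest FPKM of all members, 128.4 ± 56.8 in lead brains and 155.9 ± 26.9 in control brains (SD, n = 3 each). Its CPM were 182.0, 457.2 and 278.2 in lead libraries, against 311.4, 317.3 and 403.1 in control libraries, with the highest and the lowest value both among lead libraries. LOC109074772, at 87663-95867, had 39.9, 137.0 and 95.5 CPM in lead libraries, against 91.3, 181.4 and 160.6 CPM in control libraries. Lead replicate 1 was the lowest library for both. Their log2 fold changes were -0.17 (SE 0.32) and -0.67 (SE 0.47), with edgeR adjusted p of 0.819 and 0.52.

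**Figure D2:**
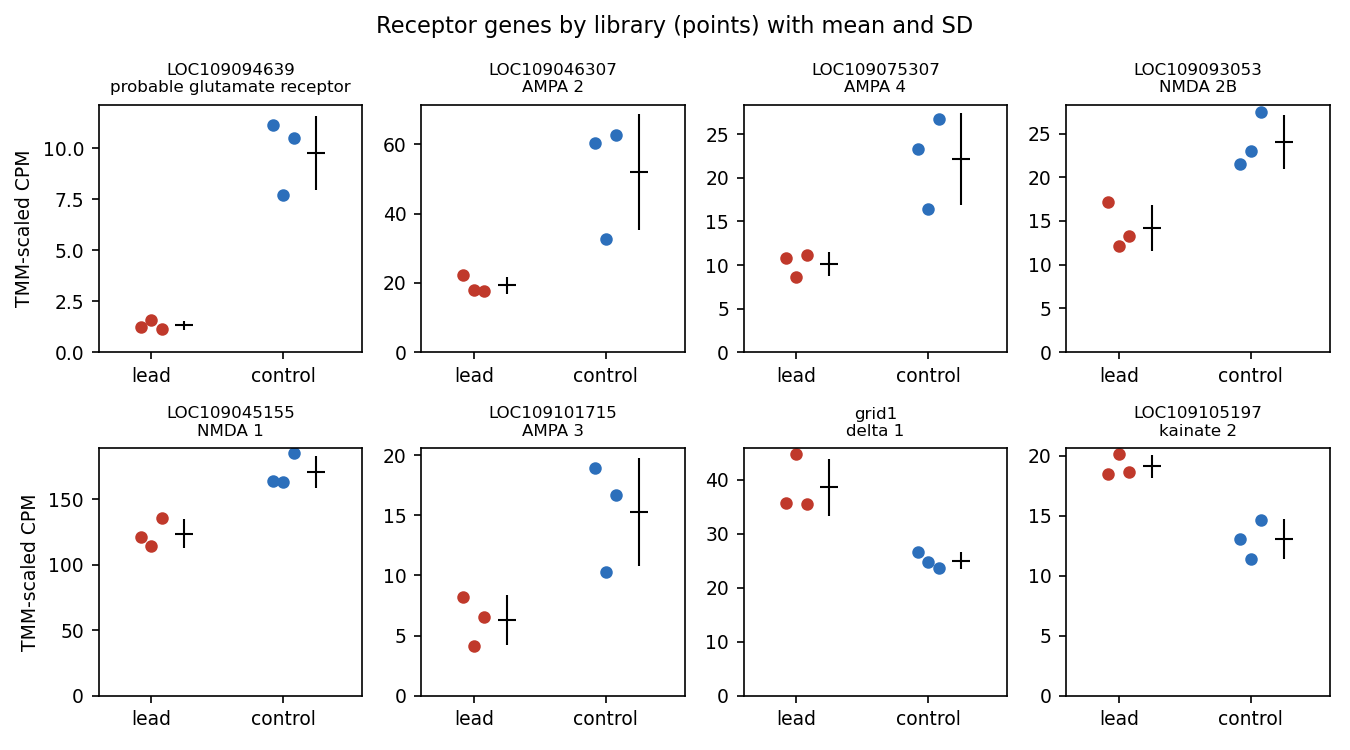
TMM-scaled CPM of 8 receptor genes in the 3 lead (red) and 3 control (blue) libraries, with the mean and SD beside the points and each axis starting at 0. The 8 genes were picked from the members of smallest p in their families, a choice that favours groups standing apart. In 6 panels all lead libraries lie below all control libraries, and for grid1 and LOC109105197 they all lie above. Of all tested genes, 12.6% had all lead libraries below all control libraries and 11.9% had them above.

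Among AMPA receptor genes, 10 of 21 tested members were lower with an unadjusted p under 0.05 and 0 were higher. Of all tested genes, 8.77% were lower and 7.53% higher in that way. LOC109074502, counted among the 10, passed the filter through the control libraries alone. None of the 21 passed the adjusted threshold of edgeR. DESeq2 called 4 of them lower, LOC109046307, LOC109075307, LOC109101715 and LOC109102009, where it called 2.41% of genes lower. The median log2 fold change of the 21 was -0.69, and it was -0.0675 over the models with at least 5 FPKM. In all, 9 of the 21 had all lead libraries below all control libraries, where 12.6% of all tested genes did so. The lowest p belonged to LOC109046307, a model of subunit 2 on the plus strand of NC_031738.1 at 12008196-12032270. It had 22.2, 17.9 and 17.8 CPM in lead libraries, against 60.5, 32.6 and 62.9 CPM in control libraries. The groups were apart, with control replicate 2 the control library nearest to them. Its log2 fold change was -1.43 (SE 0.26), with an edgeR adjusted p of 0.143, and without control replicate 2 the adjusted p was 0.0336.

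Subunit 4, which gives AMPA receptors fast kinetics, gave 3 of 6 models lower at an unadjusted p under 0.05. Of all tested genes, 8.77% were lower and 7.53% higher at that threshold. Counted among the 6 is LOC109046098, which is also described as a receptor 2 and lies directly downstream of the subunit 2 model LOC109046307. LOC109075307 had 10.8, 8.60 and 11.1 CPM in lead libraries, against 23.4, 16.4 and 26.8 CPM in control libraries. Its groups did not overlap, and the log2 fold change was -1.13 (SE 0.23) at an edgeR adjusted p of 0.157. LOC109101202 had a log2 fold change of -0.67. LOC109074502 had -2.74, from 0 to 0.643 CPM in lead libraries, against 1.06 to 4.05 CPM in control libraries, and passed the filter through the latter alone. LOC109089677, the subunit 4 model of highest FPKM apart from LOC109046098, had 23.5 FPKM in lead brains and 24.0 FPKM in control brains. Its groups overlapped, and the log2 fold change from TMM-scaled counts was 0.07 (SE 0.28).

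Subunit 3 had 12 models, of which 10 were tested, with 4 below control at an unadjusted p under 0.05. Of all tested genes, 8.77% were lower and 7.53% higher at that threshold. LOC109101715 and LOC109102009, both counted among the 4, lie 886 bases apart and may be parts of 1 gene. LOC109101715 had 8.22, 4.11 and 6.54 CPM in lead libraries, against 18.9, 10.3 and 16.7 CPM in control libraries, and its log2 fold change was -1.28 (SE 0.33) at an edgeR adjusted p of 0.187. The next models on the same strand of NC_031723.1, LOC109102009 and LOC109102015, had log2 fold changes of -1.14 and -1.06. Other copies of the subunit lay on the other side of 0. LOC109045275 had 62.9, 47.8 and 38.6 CPM in lead libraries, against 39.5, 39.2 and 25.3 CPM in control libraries, with overlapping groups and a log2 fold change of 0.52 (SE 0.24), at an edgeR adjusted p of 0.332. The 4 models of subunit 1 had a median of -0.55. Of these, LOC109102182 had -0.69 and LOC109045350, named gria1b in a newer carp annotation (assembly ASM1834038v1), had -0.86.

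The AMPA models of highest FPKM were not among those with small p. LOC109046098 averaged 62.1 FPKM in lead brains and 57.4 FPKM in control brains, and LOC109050858, of subunit 3, 53.5 FPKM in lead brains and 44.2 FPKM in control brains. Summed over the AMPA models, the level was 254.5 ± 79.0 FPKM in lead brains and 302.7 ± 35.4 FPKM in control brains (SD, n = 3 each). Lead replicate 1, at 345.7 FPKM, was the highest of the 6 libraries, and the other lead libraries, at 211.4 and 206.4 FPKM, were below every control library.

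**Figure D3:**
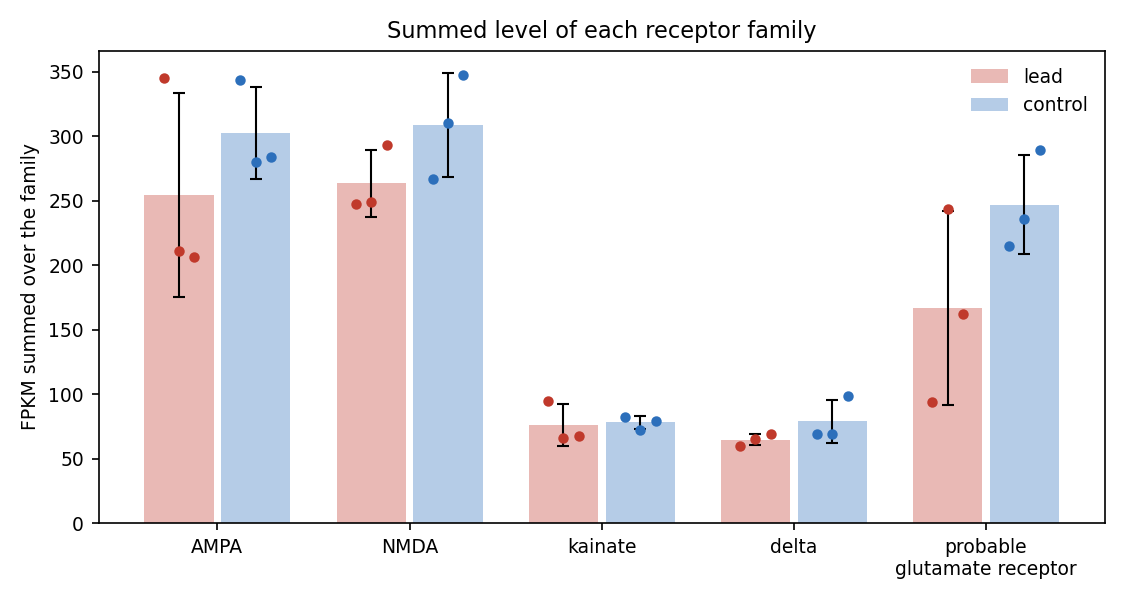
FPKM summed over all members of a family in each lead (red) and control (blue) library, with bars at the mean and error bars of 1 SD. The groups overlap in every family except delta, whose lead libraries (60.2, 65.1 and 69.1 FPKM) lie just below the control libraries (69.3, 69.5 and 98.4 FPKM). In TMM-scaled CPM the delta sums overlapped, with 126.4, 145.5 and 141.9 in lead libraries, against 126.3, 135.9 and 179.3 in control libraries.

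The NMDA family gave 4 of 18 tested members lower and 0 higher by an unadjusted p under 0.05, with a median log2 fold change of -0.17. Of all tested genes, 8.77% were lower and 7.53% higher in that way. The 4 were 2 models of the obligatory subunit 1 and 2 of subunit 2B, a subunit abundant early in brain development in mammals. The subunit 1 gene LOC109045155, grin1a in the newer annotation, had 121.6, 114.3 and 135.7 CPM in lead libraries, against 163.8, 163.5 and 185.3 CPM in control libraries. The groups did not overlap, and the log2 fold change was -0.46 (SE 0.14) with an edgeR adjusted p of 0.208. An antisense model, LOC109045165, overlaps 3198 of its bases, and the sources used here do not state if reads were assigned by strand. LOC109081426, a short model of subunit 1, had 7.00, 8.95 and 8.39 CPM in lead libraries, against 12.8, 12.9 and 12.5 CPM in control libraries, a log2 fold change of -0.65 (edgeR adjusted p 0.209).

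The subunit 1 model of highest level did not share that difference. LOC109089958 had 357.0, 392.9 and 462.7 CPM in lead libraries, against 227.4, 415.7 and 403.3 CPM in control libraries. The groups overlapped through control replicates 2 and 3, and the log2 fold change was 0.21 (SE 0.24). LOC109054676, also of subunit 1, had -0.23 (SE 0.16). A further subunit 1 gene, LOC109061150, whose description has another wording and which is therefore not a member, had 783.7, 1021 and 799.7 CPM in lead libraries, against 370.3, 609.4 and 417.5 CPM in control libraries. Its groups were apart in the other direction, and the log2 fold change was 0.90 (SE 0.22) at an edgeR adjusted p of 0.181.

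Of subunit 2B, LOC109093053 had 17.2, 12.1 and 13.3 CPM in lead libraries, against 21.5, 23.1 and 27.5 CPM in control libraries. Its log2 fold change was -0.76 (SE 0.20, edgeR adjusted p 0.189). LOC109092616, which overlaps its end by 27 bases on the same strand, had 5.18, 6.14 and 5.80 CPM in lead libraries, against 9.66, 8.75 and 8.99 CPM in control libraries. Both models had groups that did not overlap. Subunit 2A, the mature forebrain partner in mammals, had 2 tested models with -0.35 and -0.12, and subunit 2C had 2 with -0.03 and 0.20. The single tested model of subunit 2D had 0.18. For subunit 3A, which lowers calcium entry in mammals, LOC109062124 had 51.1, 49.7 and 44.4 CPM in lead libraries, against 38.9, 44.9 and 36.1 CPM in control libraries, overlapping by 1 library with a log2 fold change of 0.28 (SE 0.15, unadjusted p 0.0941 by edgeR).

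The NMDA family also held most of the members below the filter, 21 of the 32. Of these 32, 2 had no count in any library. In an edgeR fit without the filter, 3 of the others were lower at an unadjusted p under 0.05, 0 were higher and 0 were called, where 6.35% of all genes in that fit were lower and 5.6% higher. All 3 were NMDA subunits of type 2. LOC109054625, of subunit 2A, had counts of 16, 13 and 42 in lead libraries, against 102, 73 and 141 in control libraries. LOC109062622, of subunit 2B, had 17, 10 and 58 counts in lead libraries, against 124, 58 and 184 in control libraries. LOC109080153, of subunit 2A, had 0, 6 and 5 counts in lead libraries, against 42, 19 and 47 in control libraries. By counts the groups did not overlap for the 2A models and met at 58 for the 2B model. In CPM the groups of the 2B model were just apart, with 1.789 in lead replicate 3 against 1.799 in control replicate 2.

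Kainate receptor genes showed no shift in 1 direction. With an unadjusted p under 0.05, 1 member of 21 tested was lower and 1 higher, where 8.77% of all tested genes were lower and 7.53% higher. The median log2 fold change of the family was 0.09. It lay below 0 when counts were scaled to library totals alone (-0.02), without a filter (-0.01) and without lead replicate 1 (-0.20). By limma on FPKM it was -0.04 and -0.07 with pseudocounts of 1 and 0.1. LOC109058625, of subunit 1, had 2.74, 3.11 and 2.25 CPM in lead libraries, against 7.59, 4.53 and 5.46 CPM in control libraries. Its log2 fold change was -1.12 (SE 0.32, edgeR adjusted p 0.201), and it was a gene that passed the filter in control libraries alone. LOC109105197, of subunit 2, had 18.5, 20.2 and 18.6 CPM in lead libraries, against 13.1, 11.4 and 14.7 CPM in control libraries, with groups apart. Its log2 fold change was 0.55 (SE 0.17, edgeR adjusted p 0.219). The span of LOC109105197 overlaps LOC109104688, an ERF-like transcription factor model on the same strand, over 239351 bases. Reads of the overlap could be assigned to either.

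Subunits 1 to 3 form kainate channels by themselves, while subunits 4 and 5 join them and raise their affinity for the ligand. All 6 models of subunit 2 had log2 fold changes above 0, between 0.09 and 0.55, but 4 of 6 did when scaled to library totals and 3 of 6 without lead replicate 1. The 5 tested models of subunit 1 had a median of -0.56. LOC109098063, the subunit 1 model of highest level, was at 0.07 (SE 0.28). LOC109064927, of subunit 3, had -0.89 (SE 0.46), and LOC109112908, of subunit 4, had -1.25 (SE 0.69). LOC109081513, named grik4 in the newer annotation, had 30.8, 21.8 and 17.4 CPM in lead libraries, against 21.2, 19.6 and 18.5 CPM in control libraries, with a log2 fold change of 0.24 (SE 0.23). The 5 tested models of subunit 5, of 7, lay between -0.22 and 0.52. Lead replicate 1 had the highest summed level of the 6 libraries, 95.1 FPKM, against 66.1 and 67.7 FPKM in the other lead libraries and 72.6 to 82.6 FPKM in control libraries.

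Of the 10 tested delta receptor genes, 3 were lower and 1 was higher by an unadjusted p under 0.05, with a median log2 fold change of -0.29. Among all tested genes, 8.77% were lower and 7.53% higher in that way. The delta 1 gene grid1 had 35.8, 44.8 and 35.4 CPM in lead libraries, against 26.7, 24.7 and 23.7 CPM in control libraries. Its groups did not overlap, and the log2 fold change was 0.63 (SE 0.16) at an edgeR adjusted p of 0.182. Other delta 1 models were not apart, among them LOC109095015 at -0.25 and LOC109110240 at 0.25. The 3 lower genes are not reported here.

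Several subunits were split over neighbouring models, and their parts did not always give the same difference. In 5 such rows on 1 strand, the ratio of the 5′ to the 3′ model was compared between groups with a two-sided exact permutation test, whose smallest possible p is 0.1. Directly downstream of LOC109046307 lies LOC109046098, at 12032601-12036420, described both as a glutamate receptor 4 and as a receptor 2 and carrying the same KEGG orthology entry as its neighbour. It had 251.9, 161.1 and 143.8 CPM in lead libraries, against 177.1, 166.3 and 134.3 CPM in control libraries, or 0.22 on the log2 scale (SE 0.23, adjusted p 0.663 by edgeR). The 5′ to 3′ ratio was 0.0881, 0.111 and 0.124 in lead libraries, against 0.342, 0.196 and 0.468 in control libraries. The ratios did not overlap, with a log2 difference of -1.57 (exact p 0.1, 0.5 after adjustment over 5 rows). Summed, the pair had a log2 fold change of -0.04, a sum made up mostly of the more abundant LOC109046098.

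In the other 4 rows the ratios overlapped, with exact p between 0.3 and 0.9. The subunit 3 row with LOC109101715 and the subunit 2B pair were lower in all their parts.

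The same order was seen across the transcriptome. Of 617 tested pairs of neighbouring models on 1 strand with the same orthology entry and at most 1000 bases between them, the 5′ model had the lower fold change in 412 (66.8%). Their median log2 fold change was -0.15 for 5′ models and 0.11 for 3′ models. The median log2 ratio of 5′ to 3′ model was -0.71, -0.73 and -0.54 in lead libraries, against -0.46, -0.46 and -0.31 in control libraries. The part of this shift in the receptor values was not tested.

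**Figure D4:**
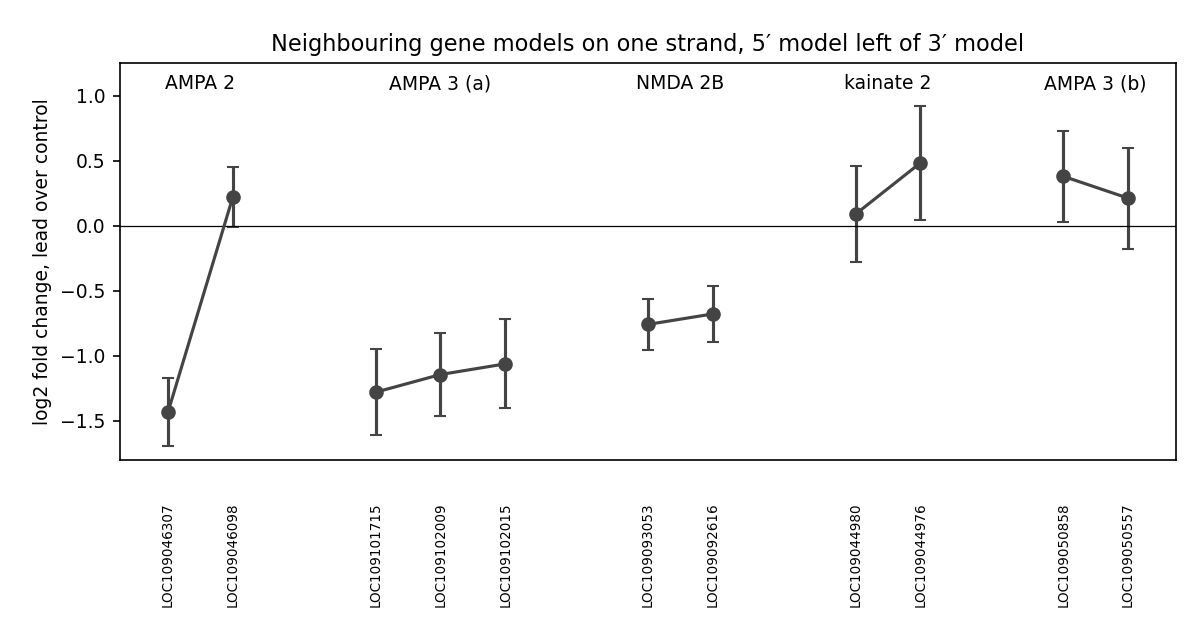
Log2 fold change of lead over control with its SE for neighbouring receptor models, drawn from the 5′ to the 3′ model of each row and joined by lines. The 5′ model lies at -1.43 and the 3′ model at 0.22 in the AMPA 2 row, while the SE bars within each of the other rows drawn overlap.

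A pair of AMPA 3 models also had copies of equal span on another sequence, and libraries divided their counts between them unevenly. LOC109050858 on NC_031745.1 and LOC109087561 on NW_017545379.1 both span 13871 bases. The copy LOC109087561 had 1.18, 57.5 and 0 CPM in lead libraries, against 0, 58.3 and 49.1 CPM in control libraries. Libraries of both groups were thus at or near 0, and its log2 fold change of -0.88 has an SE of 2.40. Summed, the copies had 125.9, 113.0 and 63.3 CPM in lead libraries, against 82.1, 117.2 and 95.1 CPM in control libraries, and the groups overlapped. LOC109050557 and LOC109087583, both of 10882 bases, shared that feature, with LOC109087583 at 16.5, 0 and 0 CPM in lead libraries, against 15.6, 0 and 0 CPM in control libraries. The sources used here do not state how reads that match several copies were assigned, so values of single copies are uncertain.

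**Figure D5:**
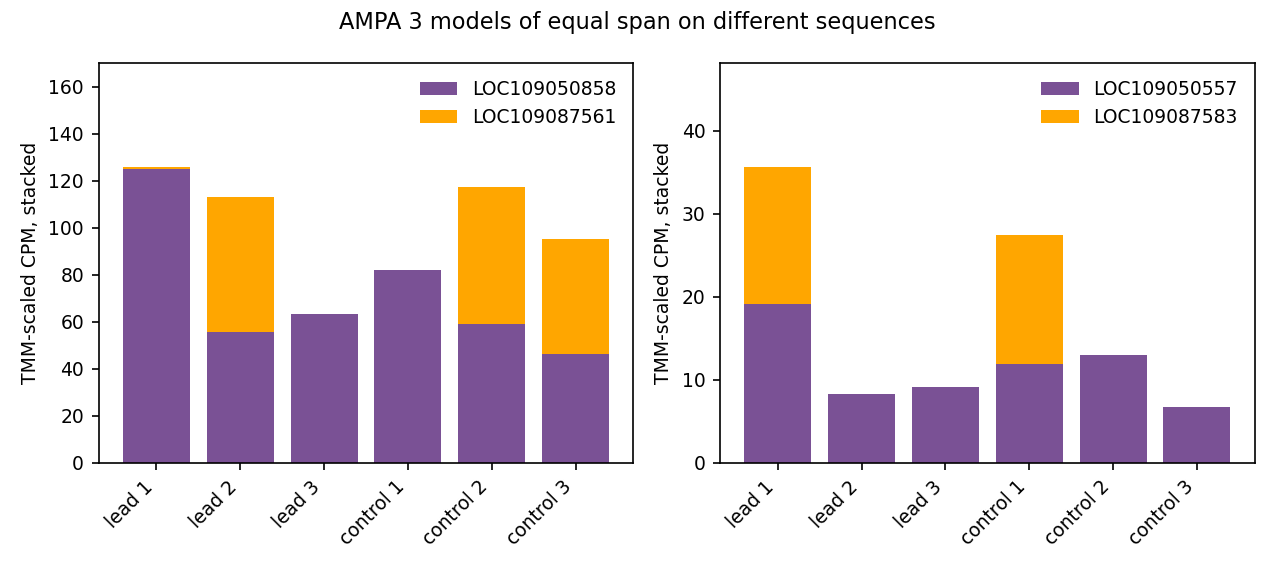
Stacked TMM-scaled CPM of AMPA 3 models that have equal spans on different sequences, in the 3 lead and then the 3 control libraries. Orange copies are absent or near 0 in some libraries of both groups while purple copies are present in every library.

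Summed over all 105 members, the level was 842.7, 835.5 and 799.3 FPKM in lead libraries, against 977.9, 969.3 and 1099 FPKM in control libraries. These groups did not overlap, but in CPM they did, with 2074, 2154 and 1996 in lead libraries, against 2072, 2273 and 2417 in control libraries. FPKM sums weigh short models more than CPM sums, and they count a split gene more than once. The FPKM also carry no TMM scaling, whose factors were 0.944 to 0.998 in lead libraries and 1.009 to 1.06 in control libraries. The part of each in the difference was not tested. Of the members, 14 overlap the span of another gene model, 11 on the same strand and 3 on the opposite strand.

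Genes that work with these receptors were read from the same fit, as counts without a test of the list. Of 39 tested genes for AMPA auxiliary subunits, 8 lay lower and 1 higher with an unadjusted p under 0.05 (median log2 fold change -0.12). At that threshold, which holds for all counts of this paragraph, 8.77% of all tested genes were lower and 7.53% higher. The calcium channel gamma-4 copy LOC109096996, of the family that holds AMPA receptors at the synapse, had 4.74, 1.88 and 4.53 CPM in lead libraries, against 14.3, 9.96 and 16.2 CPM in control libraries. Postsynaptic scaffolds gave 11 lower and 0 higher of 64, with a homer 3 copy, LOC109090415, at -2.43. That copy and 2 further scaffold genes passed the filter through the control libraries alone. Metabotropic glutamate receptors gave 12 lower and 2 higher of 30 (median -0.51), and 2 of the 30 passed the filter through the control libraries alone. Genes of glutamate release, clearance and synthesis gave 11 lower and 0 higher of 16 (median -0.73), among them the glial transporters LOC109090559 at 0.25 times its control level and LOC109085655 at a log2 fold change of -2.11. Cerebellins, ligands of delta receptors, gave 1 lower and 1 higher of 8. Both are cerebellin-1 copies. The higher, LOC109092950, had 524.6, 686.7 and 485.6 CPM in lead libraries, against 263.8, 312.7 and 318.9 CPM in control libraries. The lower, LOC109058037, had 73.04, 38.55 and 60.51 CPM in lead libraries, against 75.04, 137.8 and 77.14 CPM in control libraries. The 7 kainate auxiliary genes gave 0 in either direction. None of these genes passed the adjusted threshold of edgeR. The summed CPM of each of these lists overlapped between the groups. For metabotropic receptors it was 618 to 680 CPM in lead libraries and 674 to 740 CPM in control libraries.

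Markers of cell types and brain regions were counted in the same way at an unadjusted p under 0.05, and their part in the receptor values was not tested. Of all tested genes, 8.77% were lower and 7.53% higher at that threshold. Neuronal markers gave 11 lower and 1 higher of 52 tested, with a summed level of 5690 to 6320 CPM in lead libraries and 5580 to 6800 CPM in control libraries. Astroglial markers gave 7 lower and 0 higher of 15, of which 5, with 4 of the lower ones, are also among the genes of release, clearance and synthesis, with 3840 to 4510 CPM in lead libraries and 4230 to 4960 CPM in control libraries. Midbrain markers gave 4 higher and 0 lower of 16 and did not overlap, with 664 to 1000 CPM in lead libraries and 360 to 545 CPM in control libraries. Cerebellar markers gave 5 higher and 5 lower of 28, with 4830 to 6160 CPM in lead libraries and 3660 to 5190 CPM in control libraries. This list also takes cerebellin-1 models, so LOC109092950 and LOC109058037 are counted both here and among the cerebellins. Oligodendrocyte markers gave 6 lower and 0 higher of 26, and microglial markers 3 lower and 0 higher of 10. LOC109088037, counted among the 6, is described as myelin protein zero-like protein 1 and was taken because that description holds the name of a myelin protein. Telencephalic markers gave 1 in each direction of 14 and hypothalamic markers 2 lower and 0 higher of 25. Both lower hypothalamic genes were taken because their descriptions name thyrotropin-releasing hormone. LOC109072933 is described as a receptor of this hormone and LOC109088713 as an enzyme that degrades it, so neither is a model of the hormone itself. Blood markers gave 1 in each direction of 10, pituitary markers 1 higher and 0 lower of 5, hindbrain markers 1 higher and 0 lower of 4 and skeletal muscle markers 0 of 13. The tested pituitary genes include LOC109090727, described as a prolactin regulatory element-binding protein and not as a hormone. Retinal markers gave 1 lower and 0 higher of 11, a cone phosphodiesterase model, LOC109067327, with 0.677, 0.230 and 0.555 CPM in lead libraries, against 14.3, 14.7 and 11.3 CPM in control libraries (edgeR adjusted p 0.0132). It passed the filter through the control libraries alone. So did 1 tested gene each of the neuronal, oligodendrocyte, microglial and midbrain lists. The microglial one, LOC109046330, was among the lower genes.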

How the data were processed

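Per the labels' protocols, poly(A) RNA was selected from total RNA of brain tissue and sequenced in pairs; the protocol speaks of an adipose type, the tissue label of brain. Per the submitters' processing notes, the tools were StringTie 1.3.0, HISAT2 2.0 and Bowtie 0.12.2, with no roles stated, and the build mm8, which is of the mouse. The table places genes on carp RefSeq sequences of an assembly the sources do not name, and coordinates follow the table. Per the file headers, the deposited count values are the authors' whole-number counts per gene. The authors also deposited FPKM, per the file headers. All 12 value columns belonged to a sample.

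Counts were tested with edgeR 4.0.16 in R 4.3.3 (TMM scaling, robust quasi-likelihood fit, lead against control, no covariate) on genes that reached 1 FPKM in 3 or more libraries, with Benjamini-Hochberg adjustment over all of them. The procedure was tested on simulated data that had the same dispersion for every gene, unlike these data. The biological coefficient of variation was 36.6%. Total counts per library, given with the results, cover counting depth only. Replicate numbers were not taken as pairs. Replicates of a group differed by more than sampling noise.

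The members and gene lists were chosen with earlier results of these data known. Genes named were every called member, the 4 of smallest p and the 3 of highest FPKM in each family, copies of the same subunit, and the 2 of smallest p in a list. Genes outside this rule, the neighbouring and equal-span models, and the genes outside the membership were picked with their values known. Alternatives were other scalings and filters, DESeq2 1.42.0, limma 3.58.1 on log2(FPKM) with pseudocounts of 1 and 0.1, a fit without the robust step, the replicate number as a block, leaving out each library and, added after the data were seen, summing abutting models. Newer gene names come from the RefSeq table of ASM1834038v1, which holds 53 of the 105 members by gene ID; no coordinates were taken from it. Some genes that this rule takes are not reported here.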

Additional observations from a re-analysis of the deposited data

How the results depend on the processing

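The one member called lower was not called with the replicate number as a replicate block (0 members, edgeR adjusted p 0.133 for LOC109094639), where 1 gene was called in all; it kept its direction in all 15 other settings and its call in 9. Deviations of same-numbered libraries were correlated at 0.14, 0.04 and 0.09, and not every library correlated best with its own number, so the numbers were not taken to pair libraries. DESeq2 called 1340 genes, with 8 members lower and 1 higher, where 2.41% of genes were lower and 2.12% higher, among them LOC109046307, LOC109075307 and grid1. Without a filter 30 genes were called. Members lower at an unadjusted p under 0.05 were 11 with an FPKM of at least 5. The NMDA median log2 fold change was -0.37 without a filter, -0.41 with an FPKM of at least 5 and -0.30 by limma on log2(FPKM + 0.1). The AMPA median was -0.0675 with an FPKM of at least 5 and -0.94 by that limma fit, and the median of all members was -0.34 there; the causes were not tested. Scaling to library totals moved the median of all genes to -0.11, and partner genes higher at an unadjusted p under 0.05 to 2 and region markers higher to 7. Partner genes lower were 22, and higher 2, with an FPKM of at least 5; higher were 7 without a filter and 9 with the block, against 4. Cell markers higher were 5 without a filter and by DESeq2 and 6 with the block, against 3. Region markers lower were 13 by both limma fits, against 8, and 18 were higher with the block, against 11.

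Leaving out each library gave 2 to 25 genes called, 0 to 2 members called lower, 12 to 18 members lower at an unadjusted p under 0.05, and medians of -0.30 to -0.12 for all members, -0.82 to -0.54 for AMPA, -0.30 to -0.15 for NMDA, -0.20 to 0.19 for kainate, -0.38 to -0.04 for delta and -1.09 to -0.31 for the probable receptors. Partner genes lower ran from 24 to 42 and higher from 2 to 9, cell markers higher from 2 to 7, region markers lower from 5 to 14 and higher from 7 to 10. The number of libraries, 3 a group, limits the precision.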
